A study of Mus musculus with 16 samples.

Results

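Cfap genes encode cilia and flagella associated proteins, a naming series that gathers parts of the axoneme, the bundle of microtubules inside a cilium, together with proteins that assemble it. The set described here holds every protein-coding gene whose symbol in the RefSeq table of the mouse assembly GRCm38.p6 (mm10) is Cfap followed by digits alone. There are 31 such genes among 21887 genes that code for a protein. The rule reads the symbol alone and uses no measured value.

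Most Cfap proteins are known from motile cilia and sperm flagella. Some sit inside the doublet microtubules as inner proteins, some build the central pair of microtubules and its projections, and others hold the radial spokes or the dynein motors that bend the cilium. A few act in primary cilia, the non-motile cilia that most retinal cells carry and from which the photoreceptor outer segment is made. Rfx3 is a transcription factor of the regulatory factor X family, whose known target sequence in ciliary genes is the X-box. Foxn3 and Foxn4 are forkhead transcription factors.

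The series measured where these 3 factors lie on DNA with CUT&RUN, in which an antibody directs a nuclease to cut out the DNA around its target. Retinas of CD-1 mice at embryonic day 16, with no genotype or treatment named, were pooled and taken apart into live cells, about 300000 per assay. The 16 libraries comprise 4 with anti-Foxn3 in 2 experiments, 2 with anti-Rfx3, 2 with anti-Foxn4, and 8 with control immunoglobulin (rabbit for Foxn3 and Rfx3, mouse for Foxn4). Nuclease digestion took 1 h, but about 12 h for the Foxn4 and mouse immunoglobulin libraries, so antibody and digestion time cannot be told apart for Foxn4. The analysed data are 1 peak list per factor, with 2794 Foxn3, 2956 Foxn4 and 3981 Rfx3 peaks. Which libraries entered a list is not stated, and the control immunoglobulin libraries were not analysed here. A list gives no value of a single library and no control value, so nothing below has a spread between replicates, the depth is unknown, and no statistical test was made. Expression was not measured, so the retinal identity of the cells was not checked.

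A gene was counted as bound in a list when the midpoint of a peak lay within 1 kb of either end of the gene. Of the 31 Cfap genes, 14 were bound in the Foxn3 list (45.2%, 95% exact binomial interval 27.3% to 64%), against 8.82% of all protein-coding genes. In the Rfx3 list 16 were bound (51.6%, 33.1% to 69.8%), against 10.6% of all genes. In the Foxn4 list 1 was bound (3.23%, 0.0816% to 16.7%), against 4.84% of all genes. The intervals cover counting error only, and genes are not replicates. The Cfap genes thus appeared at several times the general share in the Foxn3 and Rfx3 lists, while their Foxn4 share lay near the share of all genes.

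All 14 with a Foxn3 peak were also bound in the Rfx3 list (45.2% of the set, against 7.56% of all genes), which is 87.5% of the 16 in the Rfx3 list; over all genes, 71% of the Rfx3 genes had a Foxn3 peak. In the other direction, 85.7% of the 1930 Foxn3 genes were in the Rfx3 list, so the sharing of the 14 lay near the general one. The 2 genes with Rfx3 alone were Cfap53 and Cfap58. Cfap20 was the only member in every list (3.23%, against 3.06% of all genes). Among Rfx3 genes, 6.25% of Cfap genes and 34% of all protein-coding genes also had a Foxn4 peak. The other 15 members were bound in no list (48.4%, against 87.2% of all genes).

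**Figure D1:**
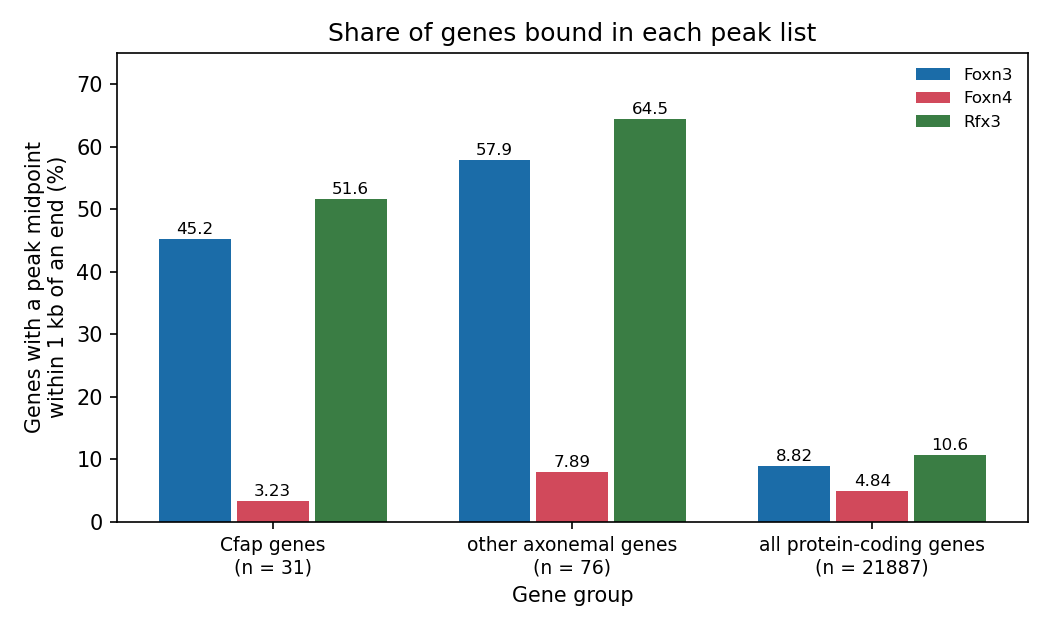
Share of genes (%) with a peak midpoint within 1 kb of a gene end in the Foxn3, Foxn4 and Rfx3 lists, for the 31 Cfap genes, 76 other axonemal genes and all 21887 protein-coding genes. In the Foxn3 and Rfx3 lists the bars of the Cfap genes (45.2% and 51.6%) and of the other axonemal genes (57.9% and 64.5%) stand above those of all genes (8.82% and 10.6%), while the Foxn4 bars are 3.23%, 7.89% and 4.84%.

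The other genes of the axoneme gave a frame for these shares. Of 76 such genes, 44 had a Foxn3 peak, 49 an Rfx3 peak, 43 both, and 6 a Foxn4 peak (57.9%, 64.5% and 7.89% in the single lists). The nexin-dynein regulatory complex, which links neighbouring doublets, had 10 of 12 genes bound in the Foxn3 and in the Rfx3 list. Radial spoke genes had 5 of 10 bound in each of these lists, central apparatus genes 4 of 7 in each, and axonemal dynein chains 8 of 18 with Foxn3 and 11 of 18 with Rfx3. Dynein assembly factors had 6 of 10 in each, dynein docking genes 3 of 5 (Foxn3) and 4 of 5 (Rfx3), and other microtubule inner proteins 8 and 9 of 14. By gene ends the Cfap share was therefore not the highest within the axoneme, and whether these shares differ was not tested. With annotated starts added, the Cfap shares were 58.1% (Foxn3) and 64.5% (Rfx3). The other axonemal genes were not measured by starts.

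The promoters of 5 Cfap genes are shown because their peaks ranked highest in the Rfx3 list among members bound by the rule and with a promoter sequence, and they include the only member in every list. Sequences are from RefSeq (GRCm38.p6), on the strand of the gene, from 200 bases before the annotated transcription start to 30 bases from the start on. They lie at chr11:29247243-29247472 (Cfap36, minus strand), chr16:90934820-90935049 (Cfap298, minus strand), chr8:95434840-95435069 (Cfap20, minus strand), chr16:44394599-44394828 (Cfap44, plus strand) and chr4:118620756-118620985 (Cfap57, minus strand). Capitals mark matches to the motifs searched on both strands. These were the X-box, made of the half-sites GTTNCC and GGNAAC with 0 to 2 bases between them and at most 1 of its 10 fixed letters mismatched, the single half-site GTTGCC, the Foxn core GACGC and the forkhead motif TGTTTAC. The single half-site can lie within an X-box.
Cfap36: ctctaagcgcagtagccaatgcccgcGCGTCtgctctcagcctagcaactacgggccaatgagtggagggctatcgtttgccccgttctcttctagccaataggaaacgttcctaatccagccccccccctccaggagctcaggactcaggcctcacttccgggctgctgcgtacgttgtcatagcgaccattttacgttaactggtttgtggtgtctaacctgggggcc
Cfap298: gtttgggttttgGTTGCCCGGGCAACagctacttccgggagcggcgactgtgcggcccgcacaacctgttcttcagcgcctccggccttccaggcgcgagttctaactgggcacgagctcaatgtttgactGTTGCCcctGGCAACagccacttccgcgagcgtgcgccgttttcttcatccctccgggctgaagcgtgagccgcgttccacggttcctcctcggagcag
Cfap20: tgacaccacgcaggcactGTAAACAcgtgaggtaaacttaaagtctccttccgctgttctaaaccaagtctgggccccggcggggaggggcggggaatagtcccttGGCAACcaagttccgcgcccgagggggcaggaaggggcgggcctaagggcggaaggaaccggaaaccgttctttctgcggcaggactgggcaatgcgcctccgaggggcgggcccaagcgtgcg
Cfap44: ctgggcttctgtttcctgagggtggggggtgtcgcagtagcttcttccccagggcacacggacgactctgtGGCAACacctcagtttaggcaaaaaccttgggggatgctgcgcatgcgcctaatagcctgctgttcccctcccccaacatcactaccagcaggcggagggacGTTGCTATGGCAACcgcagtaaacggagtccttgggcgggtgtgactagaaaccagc
Cfap57: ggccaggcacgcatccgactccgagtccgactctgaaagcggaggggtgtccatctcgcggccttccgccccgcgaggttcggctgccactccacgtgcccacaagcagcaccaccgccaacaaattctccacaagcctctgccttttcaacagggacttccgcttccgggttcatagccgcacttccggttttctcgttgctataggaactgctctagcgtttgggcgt

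Cfap298 holds a complete X-box, with a second pair of opposed half-sites 3 bases apart further down, from position -69 to -55 (the start is position 0 and upstream is negative). Cfap44 holds an X-box with 1 mismatch that begins at position -27, and a separate half-site upstream. Cfap20 holds a half-site and a forkhead motif, and Cfap36 only a Foxn core. Cfap57 has no match to any of these motifs in the stretch shown. All 230 bases of the Cfap36, Cfap298 and Cfap20 stretches lay under both a Foxn3 and an Rfx3 peak, and those of Cfap20 also under its Foxn4 peak. For Cfap44, all 230 lay under the Rfx3 peak and 147 under the Foxn3 peak, and for Cfap57, 141 and 166.

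The rank of a peak in its list was taken as its score percentile, the share of the list's peaks with a lower score. The score is the authors' value per peak, and its scale is not stated, so it was compared only within a list. Over the 14 bound members the Foxn3 percentile had a median of 91.5 (range 39.7 to 99.6), against a median of 53.8 over the 1930 genes bound in that list. Over 16 members the Rfx3 percentile had a median of 84.9 (35.8 to 98.5), against 47.8 over 2329 genes. The Cfap peaks thus came mostly from the upper part of both lists. This was not particular to the Cfap genes. Over the other axonemal genes the median was 89.5 for Foxn3 (44 bound genes) and 80.9 for Rfx3 (49 bound genes). Whether these medians differ from the Cfap ones was not tested. In each of the 2 lists, 12 members were at or above the 75th percentile, which 29.8% of the Foxn3 genes and 29.2% of the Rfx3 genes reached. At or above the 90th percentile were 8 members for Foxn3 and 5 for Rfx3, against 13.8% and 13.6% of all bound genes.

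**Figure D2:**
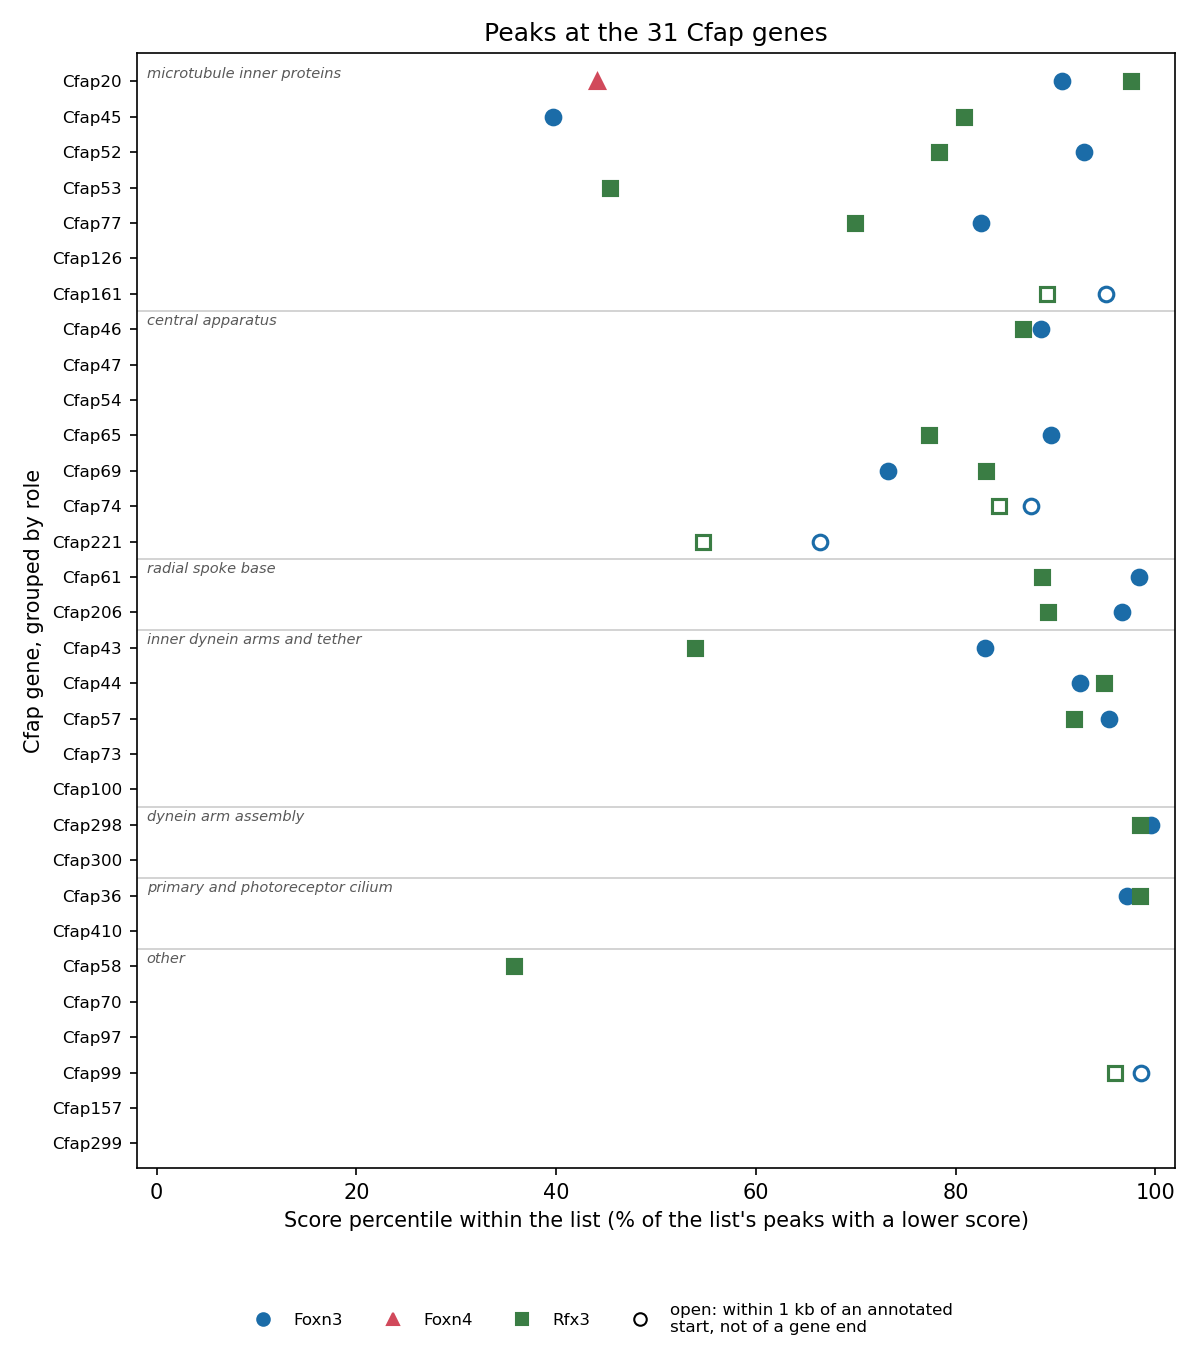
Score percentile (%) of the highest-scoring peak at each of the 31 Cfap genes, by role, for Foxn3 (circles), Foxn4 (triangle) and Rfx3 (squares). Filled symbols are within 1 kb of a gene end and open symbols within 1 kb of an annotated start alone, and a row without symbols is a gene with no peak by either measure. Most symbols lie at the right, and the lowest are Cfap58 (35.8, Rfx3) and Cfap45 (39.7, Foxn3).

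Of the 7 microtubule inner proteins, 4 were bound by Foxn3 and 5 by Rfx3. Cfap20, a protein of the inner junction of the doublet, lies at chr8:95420249-95434869. Its Foxn3 peak (chr8:95434691-95435149) had a score of 133, above 90.6% of the Foxn3 list. Its Rfx3 peak (chr8:95434663-95435259) had a score of 856, above 97.6% of the Rfx3 list, and its Foxn4 peak (chr8:95434820-95435138) scored above 44.1% of the Foxn4 list. The Foxn4 peak was therefore of middle rank, with a score of 7.11 that equals the median of its list, while the other peaks there were near the top. Cfap52 reached percentiles of 92.8 for Foxn3 (chr11:67965441-67965759) and 78.3 for Rfx3 (chr11:67965299-67966047), and Cfap77 reached 82.5 (chr2:29055191-29055544) and 69.9 (chr2:29055004-29055813).

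Cfap45, also an inner protein (chr1:172521130-172545870), had the widest gap between the 2 lists among the members bound in both. Its Foxn3 peak (chr1:172520905-172521217) scored above 39.7% of its list and its Rfx3 peak (chr1:172520601-172521322) above 80.8%. Cfap53, known for its part in left-right patterning (chr18:74283100-74359984), had an Rfx3 peak (chr18:74282982-74283201) at percentile 45.4 and no Foxn3 peak within 1 kb; the nearest was 67 kb away. Cfap126, also called Flattop, had no peak of any list nearer than 95.7 kb to an end.

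Of the 7 central apparatus genes, 3 were bound, each in both the Foxn3 and the Rfx3 list. Cfap65 reached percentiles of 89.5 for Foxn3 (chr1:74935465-74935759) and 77.3 for Rfx3 (chr1:74935348-74935989). Cfap69 reached 73.2 (chr5:5664114-5664423) and 83 (chr5:5663891-5664459), and Cfap46 reached 88.5 (chr7:139683771-139683984) and 86.7 (chr7:139683709-139683976). The midpoints at Cfap46 lay 909.5 bp (Foxn3) and 944.5 bp (Rfx3) from the gene end, just inside the limit of 1 kb. Both genes counted under the radial spoke base, Cfap61 and Cfap206, were bound by Foxn3 (98.4 and 96.7) and by Rfx3 (88.6 and 89.2). Cfap61 belongs to a complex at the spoke base that also binds calmodulin, and Cfap206 helps to dock a spoke. Cfap206 (chr4:34688574-34730263) had its Foxn3 peak at chr4:34730124-34730388 and its Rfx3 peak at chr4:34730113-34730342. At Cfap61 (chr2:145934757-146215035), 1 Foxn3 peak (chr2:145934658-145935164) spanned the greater part of a pair of Rfx3 peaks (chr2:145934658-145934870 and chr2:145934966-145935192), whose percentiles were 88.6 and 59.5.

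Of the 5 genes tied to the inner dynein arms, 3 were bound in both lists by gene ends, against 7.56% of all genes. Cfap44 and Cfap43 form a tether that holds an inner dynein to the doublet. Cfap44 (chr16:44394742-44482694) reached percentiles of 92.4 for Foxn3 (chr16:44394682-44394937) and 94.8 for Rfx3 (chr16:44394395-44394994), and Cfap43 reached 82.9 (chr19:47837256-47837610) and 53.9 (chr19:47837290-47837552). Cfap57 (chr4:118554550-118620819), needed for certain inner dyneins, reached 95.3 for Foxn3 (chr4:118620678-118620921) and 91.8 for Rfx3 (chr4:118620432-118620896). Cfap73 and Cfap100, which form a complex that modifies inner arms, were bound in no list. The tether pair was bound and the modifier pair was not.

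Cfap298 and Cfap36 had the highest Rfx3 percentile of the bound members, and Cfap298 also the highest for Foxn3. Cfap298, which acts in the cytoplasmic assembly of dynein arms (chr16:90925811-90934849), had a Foxn3 peak (chr16:90934721-90935403) with a score of 585, at percentile 99.6, and an Rfx3 peak (chr16:90934618-90935403) with a score of 1043, at percentile 98.5. Cfap300, with a like role, was bound in no list, and its nearest peaks were 91.6 kb away in both lists. Cfap36, a protein that binds the small GTPase Arl3 (chr11:29218918-29247317), had a Foxn3 peak (chr11:29247173-29247729) with a score of 272, at percentile 97.2, and an Rfx3 peak (chr11:29246842-29247683) with a score of 1048, at percentile 98.5. Cfap410, a gene of the primary cilium linked to inherited retinal dystrophy (chr10:77978530-77985438), was bound in no list, and its nearest peaks were 411 kb (Rfx3) and 719 kb (Foxn3 and Foxn4) away. Cfap418, also linked to inherited retinal dystrophy, is outside the naming rule because the gene table lists it under its older symbol, 2610301B20Rik (chr4:10874044-10899425), a match made from background knowledge. It had a Foxn3 peak (chr4:10874925-10875137) at percentile 62.6, an Rfx3 peak (chr4:10874436-10875269) at percentile 73.7, and no Foxn4 peak within 1 kb.

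The 6 remaining members are Cfap58, Cfap70, Cfap97, Cfap99, Cfap157 and Cfap299. Of these, Cfap58, a protein of the sperm flagellum (chr19:47937712-48035379), had an Rfx3 peak (chr19:47937391-47937764) at percentile 35.8, the lowest Rfx3 rank in the set. The nearest Foxn3 midpoint was 100 kb away. Over the 30 members without a Foxn4 peak within 1 kb, the nearest Foxn4 midpoint lay 5.28 to 1918 kb from an end, with a median of 219 kb, and for 3 of them within 10 kb.

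**Figure D3:**
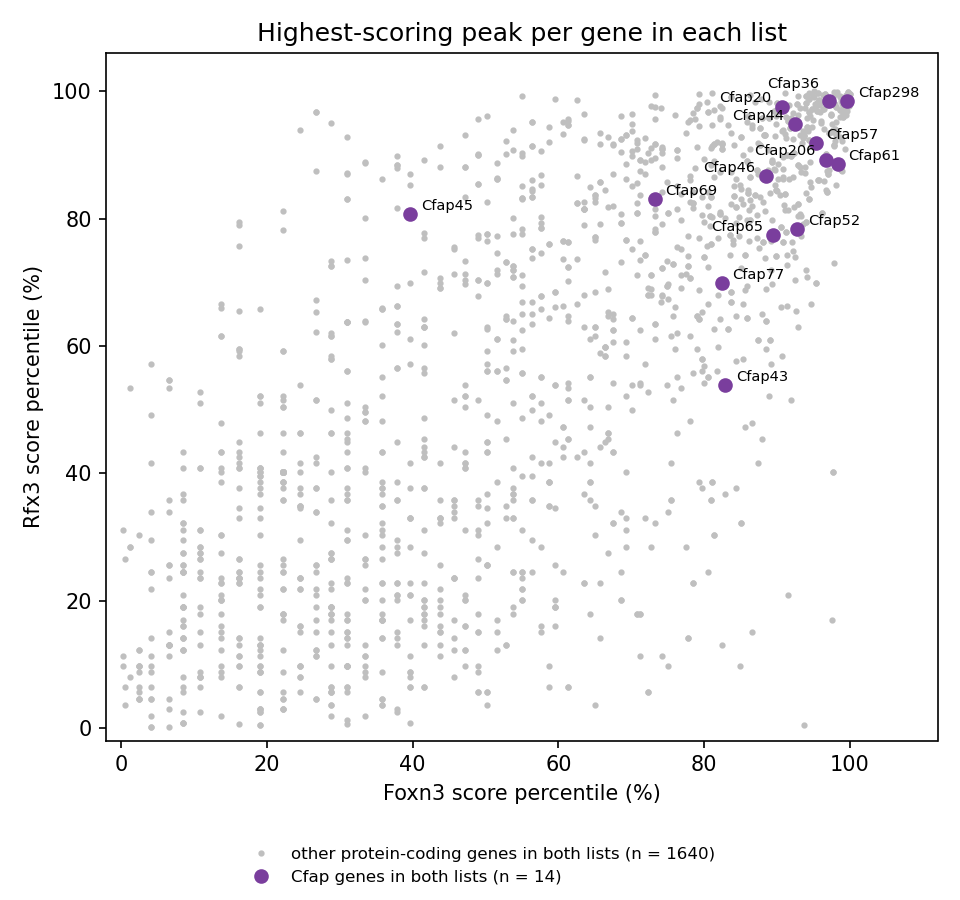
Foxn3 against Rfx3 score percentile (%) of the highest-scoring peak per gene, for the 14 Cfap genes bound in both lists (purple) and the other protein-coding genes among the 1654 bound in both (grey). The Cfap genes lie towards the upper right, with Cfap45 at the left (39.7, 80.8) and Cfap43 lowest (82.9, 53.9).

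Rank in the Foxn3 list went with rank in the Rfx3 list. Over the 14 Cfap genes in both lists the Spearman correlation of the percentiles was 0.67, and over all 1654 genes in both it was 0.74. These values describe 2 lists from the same tissue and assay. Of the 14, 10 (71.4%) were at or above the 75th percentile in both lists, against 25.5% of the 1654. The Foxn3 percentile was the higher in 9 and the Rfx3 percentile in 5, against 840 and 814 of the 1654.

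Gene ends are not always where transcription starts, since a RefSeq gene spans every annotated transcript. A promoter entry giving strand and start was found for 24 of the 31 members and for 17492 of all genes. Within 1 kb of an annotated start, 17 of the 24 had a Foxn3 peak (70.8%, against 9.67% of these genes), 18 an Rfx3 peak (75%, against 11.6%), 17 both (70.8%, against 8.3%), and 1 a Foxn4 peak and all 3 (4.17%, against 5.29% for Foxn4 and 3.45% for all 3). No peak was found for 6 (25%, against 86.1%). The starts thus placed more Cfap genes in the Foxn3 and Rfx3 lists than the gene ends did.

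The 4 genes added by their starts were Cfap99, Cfap161, Cfap74 and Cfap221, whose annotated start lies inside the gene's full extent. Cfap99 had a Foxn3 peak (chr5:34288337-34288738) at percentile 98.6 and an Rfx3 peak (chr5:34288337-34288749) at percentile 96. Their midpoints were 1810.5 and 1816 bp from the nearest end but at -127.5 and -122 bp from the start. Both peaks also lay within 1 kb of the end of Zfyve28, which is on the opposite strand. Cfap161, an inner protein, had peaks at percentile 95 (Foxn3, chr7:83794592-83795069) and 89.1 (Rfx3, chr7:83794754-83795069). These midpoints were 3194.5 and 3113.5 bp from an end and at 8.5 and -72.5 bp from the start. Cfap74 and Cfap221, both of the central apparatus, had peaks at percentiles of 87.5 and 66.4 (Foxn3) and of 84.3 and 54.7 (Rfx3). These genes were unbound by gene ends and had peaks over their starts. With both measures together, 18 of the 31 members had a Foxn3 peak (58.1%), 20 an Rfx3 peak (64.5%) and 11 no peak in any list (35.5%). Over all protein-coding genes these shares were 9.62%, 11.7% and 86%.

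Of those 11, Cfap54 had peaks just outside the limit. It belongs to the central apparatus, and its Foxn3 (chr10:93081496-93081793) and Rfx3 (chr10:93081082-93082200) peaks lay inside the gene, 1.84 and 1.85 kb from an end, at percentiles 82 and 93.5; it had no promoter entry. Cfap157 had no peak within 1 kb of an end, and no start of it was used here. The other 9 were Cfap410, Cfap126 and Cfap300, described above, and Cfap47, Cfap70, Cfap73, Cfap97, Cfap100 and Cfap299. The nearest peak of any list was 15.3 kb from Cfap73 (Foxn4 and Rfx3), 132 kb from Cfap100, 141 kb from Cfap97 (Foxn4), 189 kb from Cfap70, 226 kb from Cfap47 (Foxn4) and 971 kb from Cfap299. These genes therefore had no peak close to the limit.

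**Figure D4:**
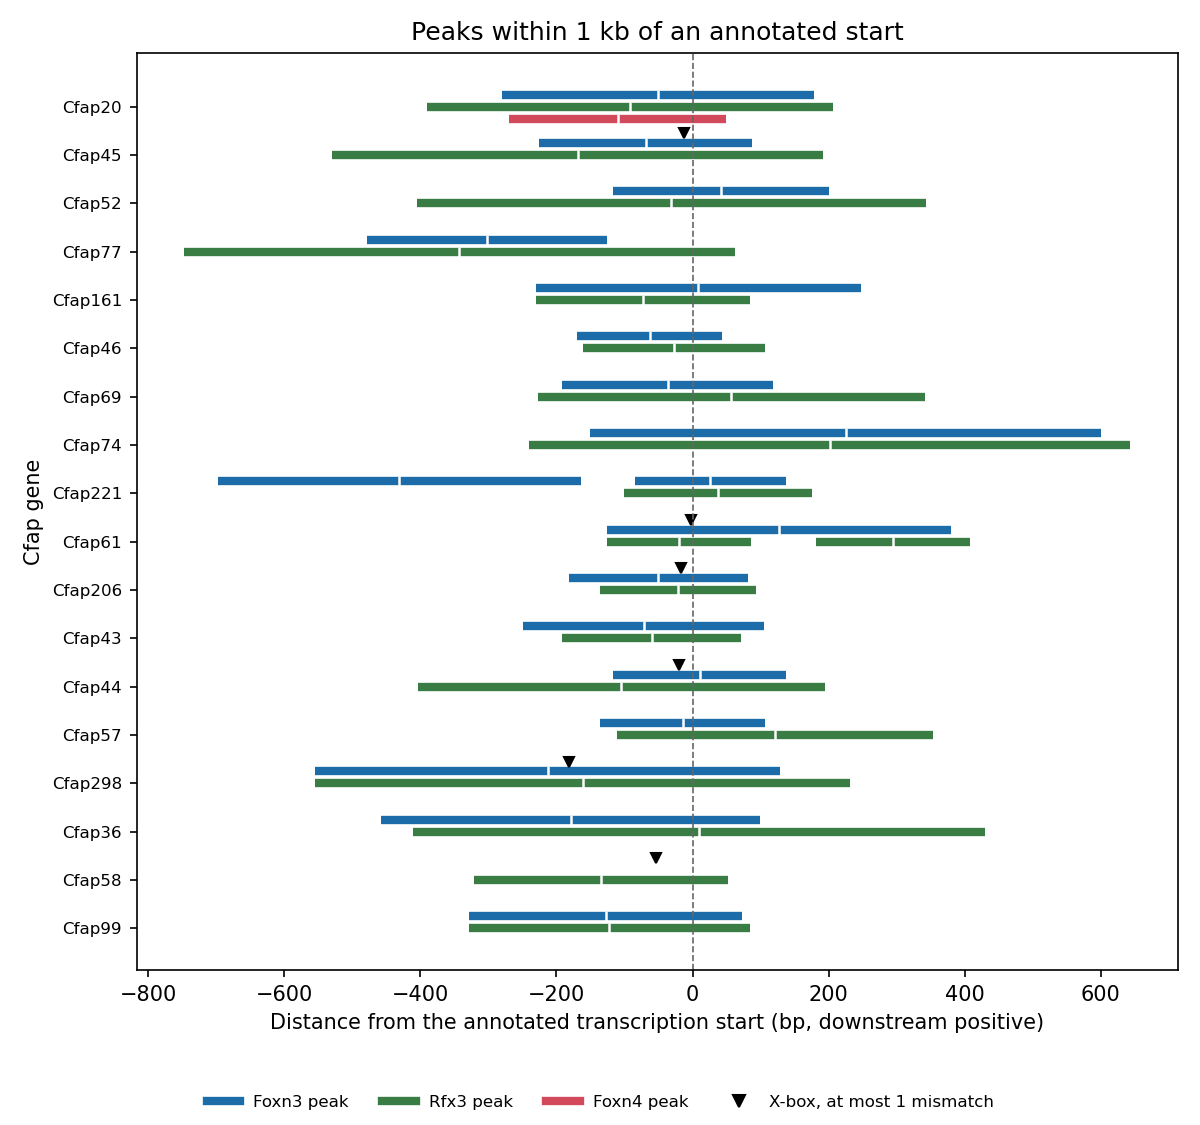
Extent of the peaks (bars, with a white tick at the midpoint) around the annotated transcription start of the 18 Cfap genes with a peak within 1 kb of it, in bp with downstream positive; triangles just above a gene's bars mark X-boxes with at most 1 mismatch. The bars of both factors lie over the start at nearly every gene; the Foxn3 peak of Cfap77, the lower-ranked Foxn3 peak of Cfap221 and the lower-ranked Rfx3 peak of Cfap61 do not reach it.

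Among peaks with a midpoint within 1 kb of an annotated start, most covered the start, at Cfap genes as over all genes. The highest-ranked Rfx3 peak near the start covered it in 18 of 18 Cfap genes, against 87.8% of 2023 genes, and the Foxn3 peak in 16 of 17, against 82.6% of 1691 genes. The exception was Cfap77, where the Foxn3 midpoint was at -301.5 bp. The median distance from midpoint to start was 62.5 bp for Foxn3 (111 bp over all genes) and 82.2 bp for Rfx3 (122 bp). Midpoints were upstream of the start in 11 of 17 genes for Foxn3 and 13 of 18 for Rfx3.

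Foxn3 and Rfx3 peaks overlapped at every one of the 14 Cfap genes bound in both lists, as they did at 99.5% of all 1654 genes. In 7 of the 14 (50%) the overlap was at least 0.5 of each peak's width, against 84.9% of all 1654, and whether these shares differ was not tested. Midpoints were 12 bp (Cfap43) to 188.5 bp (Cfap36) apart, with a median of 64.8 bp. The Rfx3 peak was the wider in 11 of 14, with median widths of 598 bp (Rfx3) and 316 bp (Foxn3). The lists as a whole had median widths of 469 and 384 bp.

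At 6 members the same peak lay within 1 kb of an end of another protein-coding gene, so the gene it belongs to is uncertain. Cfap57 and Ebna1bp2 start 14 bp apart on opposite strands, Cfap61 and Crnkl1 84 bp apart, Cfap99 and Zfyve28 341 bp apart, and Cfap52 and Stx8 816 bp apart. Steap2 lies next to Cfap69 and Mbd1 next to Cfap53. When a peak counted only for the gene with the nearest end, Cfap57 was the only member lost, from both the Foxn3 and the Rfx3 list. Cfap99 could not be lost, since it was not bound by gene ends. Its peaks lay nearer to an end of Zfyve28 than to an end of Cfap99.

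Promoter sequence was searched over 300 bases, 250 before the start and 50 from it on, for the 24 members with an entry and for all 32851 windows of the table. The complete X-box was found in 1 member, Cfap298 (4.17%), in 0.746% of all windows and in 4.42% of the windows that held an Rfx3 midpoint. Allowing 1 mismatch, a choice made after the data were seen, it was found in 6 members (25%) and in 4.73% of all windows; of the 1582 windows with an Rfx3 midpoint, 21.5% had one. All 6 members had an Rfx3 peak at the start, and none of the 6 members without an Rfx3 peak there had an X-box. Such a peak was present at 18 of the 24 members searched (75%), and whether box and peak go together was not tested. The other 12 members with an Rfx3 peak at the start had no match, which says only that these letters are not in the window.

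The X-boxes not yet shown are printed with 12 bases on either side, box in capitals, on the strand of the gene (RefSeq, GRCm38.p6). They lie at chr1:172521099-172521136 (Cfap45, plus), chr2:145934764-145934801 (Cfap61, plus), chr4:34730204-34730241 (Cfap206, minus) and chr19:47937641-47937677 (Cfap58, plus). They are shown because the members differ in rank, from Cfap206 near the top of both lists to Cfap58 with a low Rfx3 rank and no Foxn3 peak.
Cfap45: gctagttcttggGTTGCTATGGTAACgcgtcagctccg
Cfap61: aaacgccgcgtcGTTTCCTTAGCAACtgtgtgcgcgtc
Cfap206: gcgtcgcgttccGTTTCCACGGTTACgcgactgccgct
Cfap58: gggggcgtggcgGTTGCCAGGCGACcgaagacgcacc

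All 6 boxes, including those of Cfap44 and Cfap298, lay under an Rfx3 peak, with midpoints 5 bp (Cfap206) to 156 bp (Cfap45) from the box. The 5 at genes with a Foxn3 peak also lay under that peak, 31 to 128.5 bp from its midpoint. The boxes began at positions -188 (Cfap298) to -8 (Cfap61). The half-site GTTGCC was found in 9 members (37.5%, against 12.5% of all windows and 28.2% of windows with an Rfx3 midpoint), of which 7 had an Rfx3 peak at the start. The Foxn core GACGC was found in 15 (62.5%, against 27.2% and 56.3%), and the forkhead motif TGTTTAC in Cfap20 and Cfap43 (8.33%, against 3.65% and 2.21%). Shares over the windows with an Rfx3 midpoint lay closer to the Cfap shares than those over all windows for the X-box (complete or with 1 mismatch), the half-site and the Foxn core. The measures are unlike, since the Cfap shares count genes, with or without an Rfx3 peak, and the others count windows. Of the 18 members with an Rfx3 peak at the start, 1 held the complete X-box and 6 one with at most 1 mismatch. The half-site was in 7 of these 18, the Foxn core in 11 and the forkhead motif in 2.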

How the data were processed

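The deposited files are 3 peak lists, 1 per antibody, in mm10 coordinates per the file headers; positions are given counting from 1. The submitters' processing notes name cutadapt, Bowtie2, UMI-tools, bedtools and SEACR, without their settings or roles. The deposited score of each peak has no stated scale. How libraries and controls entered a list is not given in the sources used here.

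Genes and promoter sequences came from RefSeq tables of GRCm38.p6. Bound genes had the midpoint of a peak no more than 1 kb from either end; the percentile is that of the highest-scoring peak there. Members named in full were those bound in every list or in 1 list, the 5 highest in Foxn3 and in Rfx3 percentile, Cfap410 and, outside the 31, Cfap418 through its older symbol. Of 78 symbols of other axonemal genes, 7 were matched through older symbols listed by hand and 2 were unmatched, leaving 76 genes. The members' rule reads symbols alone, but the rule and the lists were chosen with earlier results of these data known. Promoter windows were checked to be on the gene's strand: 1627 of 1627 overlapping pairs of opposite strand matched. Older symbols and the X-box with 1 mismatch were chosen after the data were seen. The scripts were tested on made-up peaks and run with Python 3.11.15 and SciPy 1.17.1. Alternatives covered distance, score, peak assignment, annotated starts and the matching of symbols.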

Additional observations from a re-analysis of the deposited data

How the results depend on the processing

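Of 76 alternatives, 72 left the counts within 1.5 times, or the median percentiles within the 95% order-statistic interval of the reported median (for the 1 Foxn4 gene, equal to it). Numbers of genes were compared and not shares, also where the set was not 31 genes. With annotated starts (24 genes) the Foxn3 share rose from 45.2% to 70.8%, though its count stayed within that limit. The Foxn3 count ranged from 12 (peaks at or above the third quartile of score) to 18 of 31 (within 5 kb). These are 38.7% and 58.1%, against 2.65% and 11.6% of all genes under the same alternatives. The Rfx3 count ranged from 12 to 20 under these alternatives (38.7% and 64.5%, against 3.11% and 14.1% of all genes). With peaks at or above the third quartile no Cfap gene was bound in the Foxn4 list (0, against 1.48% of all genes). None was bound in every list (0, against 0.274% of all genes). With annotated starts in place of gene ends, 6 of 24 members were bound in no list (25%, against 86.1% of all genes with an entry). By gene ends it was 15 of 31 (48.4%, against 87.2% of all genes). The entries cover fewer genes. Of the 14 overlapping Foxn3 and Rfx3 pairs, 7 did so over at least 0.5 of each peak's width. Leaving out a replicate was not run and no test between replicates was made, since the lists hold no values of single libraries. No paired analysis was possible because the lists do not separate the numbered replicates. Depth limits could not be given.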

Other observations

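Genes outside the naming rule carry Cfap names in other forms. Wdr66 (chr5:123251725-123327484) and Maats1 (chr16:38297754-38341860), whose synonyms are CFAP251 and CFAP91, are partners of Cfap61 at the radial spoke base. Wdr66 was bound in the Foxn3 list at percentile 98.6 and in the Rfx3 list at percentile 99.1, and Maats1 at 94.5 and 88.9. With Cfap61 and Cfap206, the 4 radial spoke base genes examined were thus bound in both lists. In both lists were 7.56% of all genes and 43 of 76 other axonemal genes. None of the 4 was in the Foxn4 list, which held 4.84% of all genes, so this absence is not particular to them. Cfap97d2 (chr8:13705750-13744599) was bound in the Foxn3 (81) and Rfx3 (91.1) lists, Cfap20dc in the Rfx3 list (49.1) and Cfap97d1 in none. Ppip5k2, with the synonym Cfap160, was bound in none.

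Inside Cfap54, 132713 bp from the nearest end, lay a Foxn4 peak only 87 bp wide at percentile 91.5 of its list (chr10:92950731-92950817).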
